A study of Homo sapiens with 9 samples.

Results

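Nuclear genes coding for subunits of the respiratory chain and of ATP synthase were examined as a set of 88 of the 18970 gene symbols counted. Members were taken by symbol: NDUFA, NDUFB, NDUFC, NDUFS or NDUFV followed by a number, and names starting with UQCR, COX4 to COX8 or ATP5. SDHA, SDHB, SDHC, SDHD and CYC1 completed the set. The set was chosen with earlier results of these data known. By the textbook place of their products, 36 belonged to complex I, 4 to complex II, 10 to complex III, 19 to complex IV and 19 to complex V. Complexes I, III and IV pump protons across the inner mitochondrial membrane while electrons pass from NADH to oxygen, complex II feeds in electrons from succinate, and complex V, ATP synthase, uses the proton gradient to make ATP. Except for complex II, these complexes are mosaics: a small set of subunits is coded in mitochondrial DNA, while the subunits described here are coded in the nucleus, translated in the cytosol and imported. Their messenger RNAs are known as abundant and long-lived in dividing cells, and several subunits have a second gene used mainly in muscle, lung, testis or under low oxygen.

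The cells were cranial neural crest cells (CNCCs), embryonic precursors of the facial skeleton, grown from the established human embryonic stem cell line H9. All samples carried both copies of SOX9 fused to FKBP12-F36V, mNeonGreen and V5, so that the compound dTAGV-1 leads the SOX9 protein to degradation. The 9 samples formed 3 groups of 3: 0h (vehicle by the protocol, although the labels list 500 nM for these samples too, with a SOX9 level of 100% of the starting level in the labels), 3h and 24h of dTAGV-1 at 500 nM (both with a SOX9 level of 0%). Every sample received 4-thiouridine (4sU) at 100 uM for 2 h, so that the pulse started 1 h into the 3h treatment and 22 h into the 24h treatment. Each group held the same 3 cultures, S9CC13_R6, S9CC47_R5 and S9CC47_R6, which came from 2 clones of the tagged line and 2 differentiations. Cells without the tag treated with dTAGV-1 were not analysed here, so an effect of the compound itself cannot be told apart from loss of SOX9.

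In SLAM-seq, RNA made during the 4sU pulse is recognised by T>C conversions after alkylation. Total reads of a gene measured its RNA level, T>C reads measured the part labelled in the last 2 h, and their ratio, the T>C share, rises with the turnover of the RNA but also with the number of T bases in the read. Libraries held 16955633 to 28782678 total reads and 3130673 to 5475800 T>C reads, and the T>C share of all reads ranged from 15.9% to 21.3%. The 3h library of S9CC13_R6 had the lowest share and stood apart: 43 of the 81 measurable respiratory chain genes had their lowest level of the 9 libraries there. SOX9 transcript itself, which the compound does not target, rose by 1.15 ± 0.0831 (SE) on the log2 scale in total reads at 24h (DESeq2, adjusted p = 4.46e-40), so it does not check the depletion. Of 12 CNCC markers, SOX9 among them, 12 averaged 1 CPM or more. Their summed level was 4506 to 4575 CPM at 0h, 5399 to 5627 at 3h and 6681 to 7066 at 24h. SOX9 (mean 764.4 CPM at 0h and 1754 at 24h) and MSX1 (624.8 and 1457) rose the most. NR2F1 (1064 and 1056) did not rise, and at 3h NR2F1, TFAP2B and SNAI2 were lower than at 0h. The pluripotency list summed to 350.1 to 414.4 CPM at 0h, 303.6 to 349.0 at 3h and 281.5 to 306.1 at 24h, carried by LIN28A and DPPA4, with POU5F1 and NANOG under 1 CPM and TDGF1 at 0, and muscle genes summed to 1.38 to 2.72 CPM with MYOG at 0. The part of cell makeup in the changes below was not tested, and in bulk libraries fewer cells of a type and less RNA per cell cannot be told apart.

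Promoters are shown first for the 6 genes that later passed the test in both T>C and total reads, since members of the set are known for shared promoter motifs. Each line runs 5′ to 3′ on the gene's strand from 120 bases before the RefSeq transcription start to the first 30 transcribed bases (GRCh38.p14), with capitals for any match, on either strand, to GCGCATGC (bound by NRF1, nuclear respiratory factor 1), CCGGAAG (ETS factors such as GABP), AANATGGCG (YY1) or AAGGTCA (estrogen-related receptors).
ATP5MC1: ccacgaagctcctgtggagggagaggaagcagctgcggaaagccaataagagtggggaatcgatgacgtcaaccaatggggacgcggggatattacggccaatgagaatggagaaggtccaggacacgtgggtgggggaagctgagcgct
ATP5MC2: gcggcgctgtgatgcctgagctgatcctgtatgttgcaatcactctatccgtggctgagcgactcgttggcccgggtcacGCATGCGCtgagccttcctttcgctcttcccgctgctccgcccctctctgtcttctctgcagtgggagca
ATP5ME: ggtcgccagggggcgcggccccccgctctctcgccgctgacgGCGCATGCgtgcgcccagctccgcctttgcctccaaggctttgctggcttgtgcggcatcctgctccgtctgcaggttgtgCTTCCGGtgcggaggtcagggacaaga
ATP5MG: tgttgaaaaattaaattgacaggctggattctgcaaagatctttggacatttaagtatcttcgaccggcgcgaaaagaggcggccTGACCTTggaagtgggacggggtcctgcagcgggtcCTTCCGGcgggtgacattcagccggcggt
NDUFS6: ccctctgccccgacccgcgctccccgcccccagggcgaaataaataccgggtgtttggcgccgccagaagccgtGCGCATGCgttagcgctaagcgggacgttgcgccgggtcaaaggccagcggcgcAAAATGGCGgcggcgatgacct
NDUFB6: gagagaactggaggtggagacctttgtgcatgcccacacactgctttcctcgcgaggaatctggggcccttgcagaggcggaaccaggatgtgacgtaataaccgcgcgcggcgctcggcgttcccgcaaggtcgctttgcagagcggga
The windows lie at chr17:48892667-48892816 (plus strand), chr12:53676054-53676203 (minus), chr4:674247-674396 (minus), chr11:118401486-118401635 (plus), chr5:1801287-1801436 (plus) and chr9:32573130-32573279 (minus). NRF1 letters stand in the windows of ATP5MC2, ATP5ME and NDUFS6, ETS letters in those of ATP5ME and ATP5MG, estrogen-related receptor letters in that of ATP5MG and YY1 letters in that of NDUFS6. The printed windows of ATP5MC1 and NDUFB6 hold none of these 4 strings.

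Over the whole set, 69 of the 88 genes had a listed promoter of 300 bases (250 before the start and 50 after it). At least 1 of the 4 strings was present in 37 of the 69 (53.6%), against 24.0% of 14903 promoters of all protein-coding genes listed. The YY1 string was found in 23.2% of respiratory chain promoters and 5.01% of all promoters. The NRF1 string was found in 18.8% and 4.29%, the ETS string in 29.0% and 14.5%, and the estrogen-related receptor string in 13.04% and 3.11%. The E-box CACGTG (10.1% and 8.90%), the GC box GGGCGG (60.9% and 59.7%), the CCAAT box (36.2% and 36.6%) and the TATA box TATAAA (10.1% and 9.54%) stood at like shares in both, and the cyclic AMP element TGACGTCA in 7.25% and 2.64%. These are matches of letters, not measured sites, and they were not tested.

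Levels are given first. In 3′ end libraries a transcript yields about 1 fragment whatever its length, so reads scaled to a common library total (CPM) were compared between genes with no length scaling. The 88 genes together took 1.75% ± 0.0938 (SD, n = 3) of each library's reads at 0h, then 1.69% ± 0.142 at 3h and 1.74% ± 0.0321 at 24h, which differed by less than the spread between cultures. A level of 1 CPM in 3 samples was reached by 81 genes. Their median level at 0h was 168.8 CPM against 23.8 CPM over all genes tested, 77 of the 81 lay above that overall median, and 43 were in the highest decile of all genes.

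The highest level belonged to ATP5MC2, a gene of the c subunit whose ring turns in the membrane part of ATP synthase, with 1151, 1227 and 1142 CPM in the 0h samples of S9CC13_R6, S9CC47_R5 and S9CC47_R6. ATP5MG, coding for subunit g of the same membrane part, had 874, 949 and 881 CPM, and ATP5MC3, another c subunit gene, had 528, 730 and 568 CPM. The values of ATP5MC2 lay above all values of ATP5MG, and those of ATP5MG above all of ATP5MC3, whereas ATP5MC3 overlapped its neighbour COX4I1. Such overlap was the rule: 73 of the 80 neighbouring pairs in the order of levels overlapped. The lowest measurable genes at 0h were SDHD at 1.73 ± 0.641 CPM, ATP5MGL at 3.98 ± 0.418 CPM and SDHB at 6.10 ± 1.92 CPM (mean ± SD, n = 3). SDHB codes for the iron-sulfur subunit of complex II and SDHD for one of its membrane anchors. The other complex II genes, SDHA (flavoprotein, 73.5 ± 3.02 CPM) and SDHC (membrane anchor, 63.3 ± 9.31 CPM), stood higher, so the genes of one complex did not have equal read levels. Between the lowest and the highest measurable gene the ratio was 33.5 in complex I, 42.4 in complex II, 13.2 in complex III, 11.4 in complex IV and 295.1 in complex V. The lowest gene was UQCRHL, a retrocopy of UQCRH, in complex III. In complex V it was ATP5MGL, a gene of 1 exon named after ATP5MG. The ratios of complexes III and V may thus not be spreads between standard subunits alone. In complex II, SDHA, SDHB, SDHC and SDHD have 4, 1, 4 and 6 annotated pseudogenes named after them. An exon of another gene lies over the last exon of SDHA on the same strand. Reads may be shared there, and the part of this in the complex II ratio was not tested.

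Where a subunit has several genes, 1 form dominated in the CNCCs. COX4I1 stood at 598.5 ± 31.7 CPM and its hypoxia and lung form COX4I2 at 0 reads in all 9 libraries, where a count of 0 allows up to 0.104 to 0.177 CPM (3 reads). COX7A2 (223.9 ± 7.68 CPM) and the supercomplex factor COX7A2L (52.5 ± 8.85 CPM) were read, while the muscle form COX7A1 had 0 reads throughout. COX7B had 180.7 ± 15.9 CPM and COX7B2, known from testis, 0 reads. The remaining forms under the filter had at most 10 reads in any library: COX6A2 (muscle) beside COX6A1 at 224.9 ± 14.6 CPM, COX6B2 (testis) beside COX6B1 at 312.0 ± 20.9 CPM, COX8C (testis) beside COX8A at 462.8 ± 54.0 CPM, and NDUFA4L2 (induced by low oxygen) beside NDUFA4 at 402.9 ± 73.0 CPM. Those 7 genes are the members that entered no test. More than 1 gene was well read for the c subunit, with ATP5MC1 at 259.1 ± 15.3 CPM beside ATP5MC2 and ATP5MC3, and for the complex III hinge subunit, with UQCRH at 327.3 ± 33.0 CPM beside its retrocopy UQCRHL at 38.0 ± 17.5 CPM. Reads of UQCRH and UQCRHL may be shared between near-identical copies, so the split between them is uncertain.

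**Figure D1:**
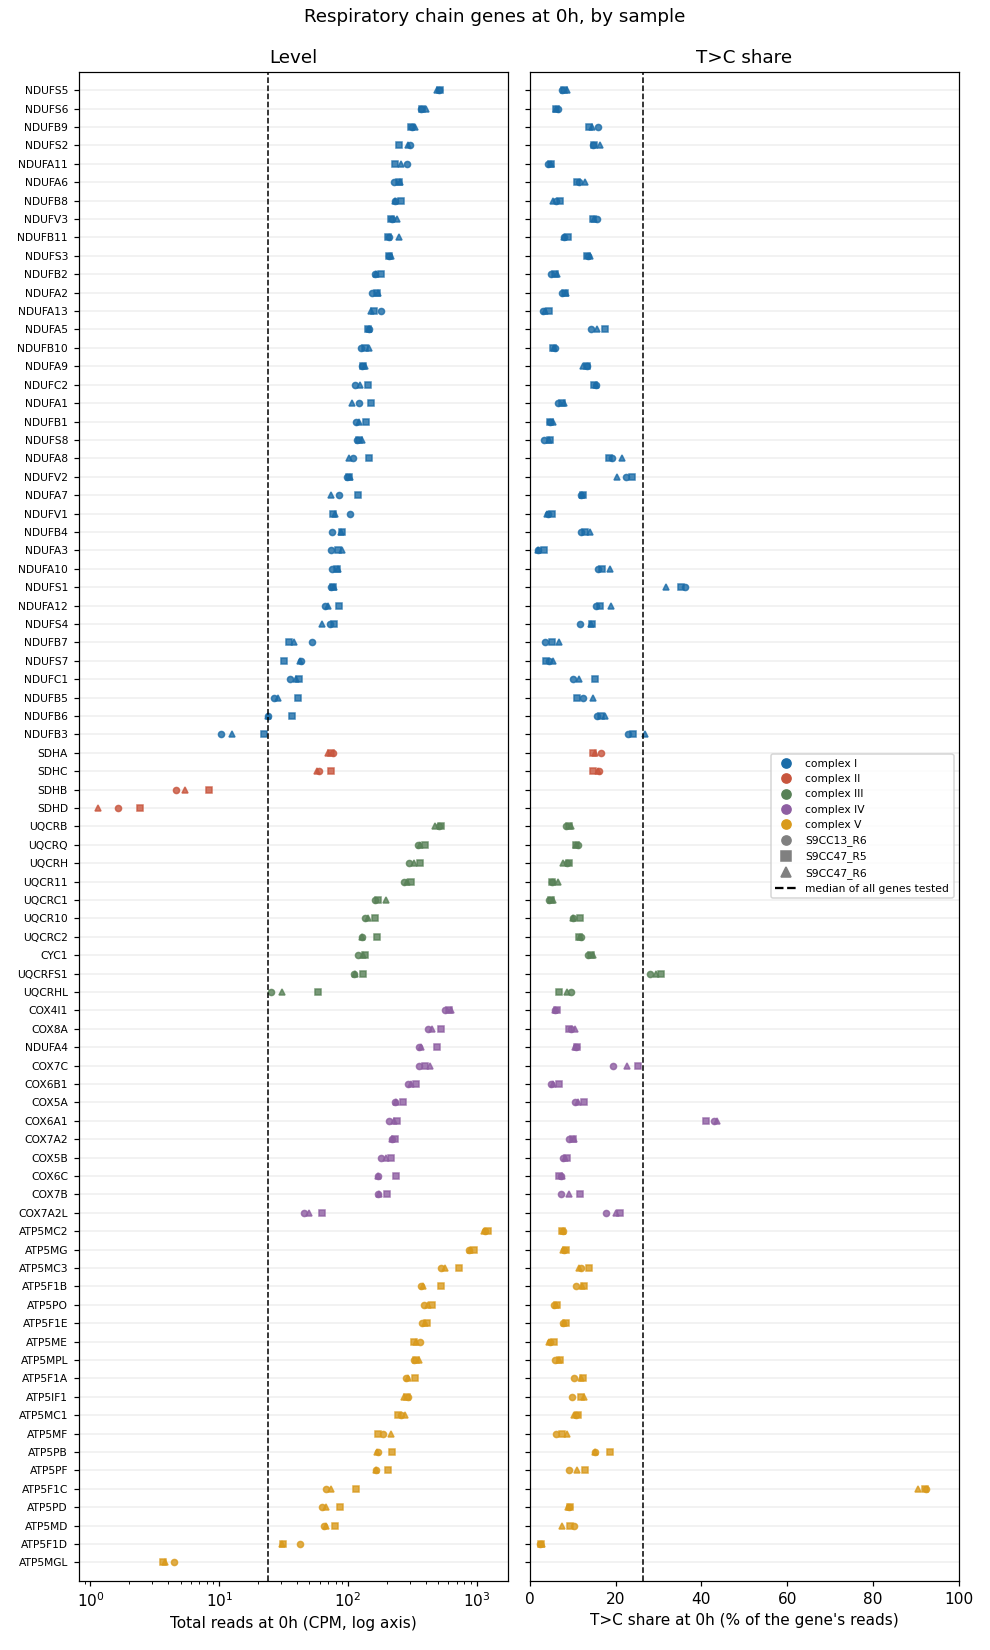
Level (left, CPM of total reads on a log axis) and T>C share (right, % of the gene's reads) of the 81 measurable respiratory chain genes in the 3 samples of 0h, 1 symbol per culture, coloured by complex, with the share drawn for the 78 genes of at least 100 reads in every library. Most levels lie right of the median of all genes tested (23.8 CPM, dashed) and most shares left of it (26.3%, dashed), with ATP5F1C alone near 92%.

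Labelling set the group apart in the other direction. The summed reads of the 88 genes had a T>C share of 10.8% ± 0.533 at 0h (SD, n = 3), which was 10.2% ± 0.545 after 3 h and 11.3% ± 0.497 after 24 h, against 19.1% ± 0.852, 17.9% ± 1.82 and 20.5% ± 0.752 for all reads, and their share was the lower in each of the 9 libraries. Among 78 genes with at least 100 total reads in every library, the median share at 0h was 10.7%, while it was 26.3% over the 8961 genes of that depth. Of the 78, 74 lay below the overall median and 38 in the lowest decile of all genes. The low share was not confined to the most abundant genes: between 82.5 and 289.7 CPM, 41 respiratory chain genes had a median share of 10.8% and 1735 other genes one of 20.8%. Base content moved with the share. The last 200 transcribed bases held 29.0% T in the median respiratory chain gene and 32.5% in the median gene, and across genes T content and share had a Spearman correlation of 0.60 over the 78 and 0.368 over 8959 genes. Genes of 1 library set share depth and are not independent, and the part of base content in the low share was not tested.

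By complex, the median T>C share at 0h was 12.2% for complex I, 15.6% for the 2 complex II genes of sufficient depth, 9.84% for complex III, 9.81% for complex IV and 9.15% for complex V. The lowest shares were those of NDUFA3, an accessory subunit of complex I, at 2.42% ± 0.789, of ATP5F1D, the delta subunit in the rotating stalk of ATP synthase, at 2.62% ± 0.191, and of NDUFA13, another accessory subunit of complex I, at 3.76% ± 0.607 (SD, n = 3). NDUFA3 ranked so low that 2 of the 8961 genes had a lower share. Complex I core subunits, which carry the electron path, ranged widely: NDUFS8 had 4.19% ± 0.724, NDUFV1 4.48% ± 0.583, NDUFV2 22.2% ± 1.80 and NDUFS1, which binds iron-sulfur clusters, 34.4% ± 2.32. COX6A1, a small subunit of complex IV, reached 42.6% ± 1.34. UQCRFS1, the Rieske iron-sulfur protein of complex III, stood at 29.3% ± 1.27 in a complex whose other genes lay between 5.00% and 14.2%.

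ATP5F1C (chr10:7788147-7807815, plus strand), the gamma subunit of the stalk, was the exception, with a T>C share of 91.6% ± 0.970 at 0h, 88.9% ± 6.00 at 3h and 90.3% ± 0.755 at 24h. A T>C read is a mismatch to the reference genome. The counts alone do not tell a labelled base from a base that differs in H9 from the reference. The share of ATP5F1C may therefore not measure labelling. The same limit holds for COX6A1, whose share was 38.9% to 51.1% over the 9 libraries. Only 13 of 8961 genes had a share over 80%. The next highest respiratory chain gene, COX6A1, was far below it, and the other stalk gene described, ATP5F1D, had nearly the lowest share of the set. Total and T>C reads of ATP5F1C were therefore nearly the same reads, and its T>C reads cannot be read separately from its level.

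**Figure D2:**
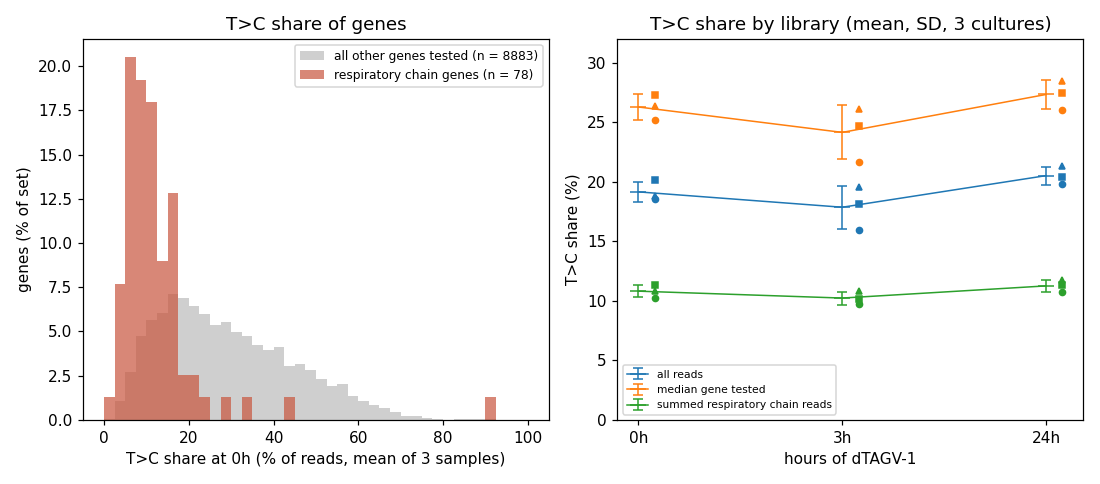
Left, distribution of the T>C share at 0h (% of reads, mean of 3 samples; height in % of each set) for 78 respiratory chain genes and 8883 other genes. Right, T>C share by time for all reads, the median gene tested and the summed respiratory chain reads (line and bars: mean and SD; symbols: the 3 cultures); the respiratory chain share stays at 10.2% to 11.3% on average while that of all reads lies between 17.9% and 20.5%.

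Whether SOX9 depletion moved these genes was asked with DESeq2 fits over all genes, in which a gene was called at an adjusted p (Benjamini-Hochberg, over all genes tested) under 0.1. Fold changes are later over earlier time and carry differentiation batch and 1 surrogate variable as covariates. After 3 h none of the 81 respiratory chain genes was called in T>C reads, where 1.79% of all 12037 genes were. An unadjusted p under 0.05 was found for 2 of the 81, beside 882 of all genes. None was called in total reads either, where 1.89% of all 11710 genes were. There 9 of the 81 had an unadjusted p under 0.05, beside 962 of all genes. The edgeR quasi-likelihood test also called 0 in both. The median log2 fold change at 3h of the set was -0.05 (T>C reads) and -0.03 (total reads), beside -0.01 and -0.01 over all genes. The 95% interval of the change lay within 1 log2 unit of 0 for 78 of the 81 genes in T>C reads and for 80 of 81 in total reads. Smaller changes could be missed. In counts simulated for 24h against 0h, 4 of 67 changes of 0.3 log2 units were called in T>C reads and 5 of 67 in total reads. At 0.6 log2 units these were 26 and 37 of 67. The simulated counts held no batch or culture effect, and changes were set only in genes above a minimum mean count. These rates therefore need not hold for the measured libraries.

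At 24h, 6 of the 81 genes (7.41%) were called in T>C reads, beside 4.98% of all genes, and 13 (16.05%) in total reads, beside 15% of all genes. These shares were near the background, and the medians stayed at -0.03 in both measures against 0.00 over all genes. The 6 genes called in T>C reads were all among the 13 called in total reads, and each moved the same way in both. By complex, T>C reads fell for 4 of 19 complex V genes and rose for none, rose for 1 and fell for 1 of 36 complex I genes, and gave no call in complexes II, III and IV, where 2, 1 and 1 genes had an unadjusted p under 0.05 and edgeR called 0. In total reads, complex I had 5 genes up and 1 down, and complex II 1 up (SDHC) and 1 down (SDHA). Complex III had 1 down (UQCRQ) and complex V the same 4 down. In complex IV 0 of 12 were called, with 1 at an unadjusted p under 0.05 and 0 with edgeR. Over all genes, unadjusted p was under 0.05 for 1633 of 12037 in T>C reads and 2791 of 11710 in total reads.

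**Figure D3:**
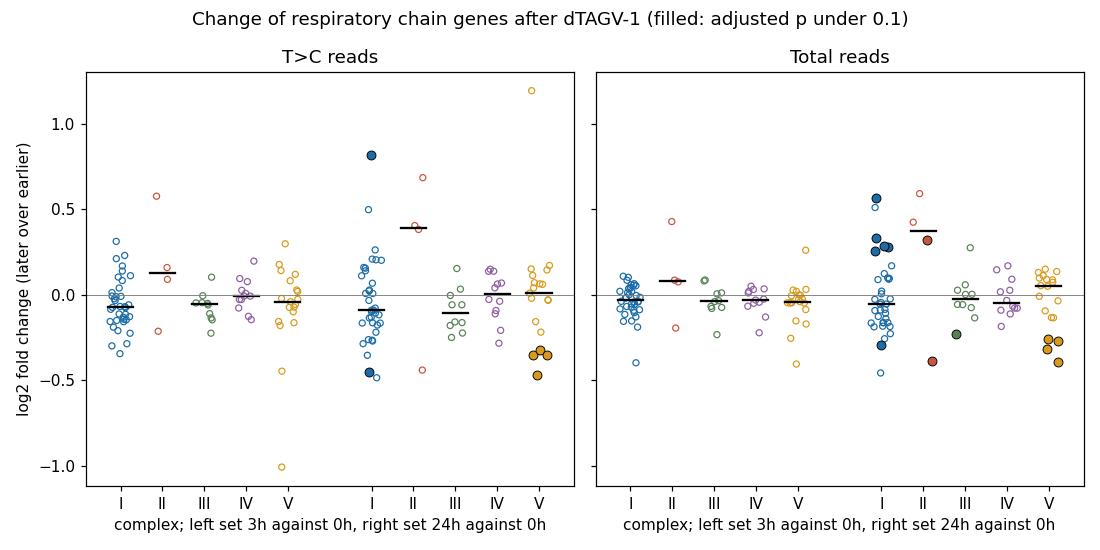
Log2 fold change of each of the 81 respiratory chain genes at 3h and 24h against 0h in T>C reads (left) and total reads (right), by complex; filled points passed an adjusted p under 0.1 (DESeq2) and black bars are medians. No point is filled at 3h; at 24h 6 are filled in T>C reads and 13 in total reads, among them the same 4 falling complex V genes.

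The 4 complex V genes that fell code for subunits c, e and g of ATP synthase. Complex V as a whole did not shift with them: its median log2 fold change at 24h was 0.01 in T>C reads and 0.05 in total reads, and 10 of its 19 genes were above 0 in each. ATP5MC2 (chr12:53632726-53677408, minus strand), the most abundant gene of the set, had 24808, 26701 and 25469 normalised total reads at 0h in S9CC13_R6, S9CC47_R5 and S9CC47_R6, then 19909, 27240 and 24674 at 3h and 20282, 22858 and 20930 at 24h. All 24h values lay below all 0h values, while the 3h values spanned both. Total reads fell by 0.32 ± 0.0809 (SE) on the log2 scale (adjusted p = 0.00215). Its T>C reads were 1964, 1873 and 1920 at 0h and 1484, 1731 and 1471 at 24h, without overlap, and fell by 0.32 ± 0.0990 (adjusted p = 0.0367).

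ATP5MC1 (chr17:48892765-48895871, plus strand), whose mature c subunit protein is the same after import, had 5508, 5355 and 6154 normalised total reads at 0h, 6152, 6080 and 5453 at 3h and 4844, 4645 and 4251 at 24h. The 24h samples lay below every 0h and 3h sample. Total reads fell by 0.26 ± 0.0821 (adjusted p = 0.0211), and T>C reads, at 613, 565 and 631 at 0h and 492, 471 and 365 at 24h, fell by 0.35 ± 0.124 (adjusted p = 0.0934). The c subunit gene ATP5MC3 (chr2:175176258-175181710, minus strand) passed no test, with 608.5 ± 107 CPM at 0h and 677.9 ± 56.3 CPM at 24h, so 2 of the 3 c subunit genes were called.

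ATP5ME (chr4:672436-674330, minus strand), subunit e, had 7806, 7042 and 7570 normalised total reads at 0h, 6160, 8193 and 5214 at 3h and 4699, 6695 and 5185 at 24h. The 3h samples spread widely, and the 24h samples lay below those of 0h. Its total reads fell by 0.40 ± 0.116 (adjusted p = 0.0104) and its T>C reads, from 391, 375 and 343 to 211, 299 and 238, fell by 0.47 ± 0.154 (adjusted p = 0.0564).

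ATP5MG (chr11:118401346-118433278, plus strand), subunit g, had 18833, 20648 and 19644 normalised total reads at 0h, 14636, 19866 and 17698 at 3h and 16026, 18384 and 16082 at 24h. Every culture was lower at 24h, and the groups did not overlap. Total reads fell by 0.27 ± 0.0811 (adjusted p = 0.0137), a call lost with culture as a block (adjusted p = 0.113). T>C reads, from 1559, 1647 and 1505 to 1224, 1305 and 1240, fell by 0.35 ± 0.0948 (adjusted p = 0.0105) and kept the call with the block.

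NDUFS6 (chr5:1801407-1816048, plus strand), a zinc-binding accessory subunit of complex I, was the falling complex I gene. It had 7880, 8167 and 8962 normalised total reads at 0h, 8137, 9109 and 7475 at 3h and 6607, 7078 and 6293 at 24h. The 24h samples lay below all others. Total reads fell by 0.30 ± 0.0850 (adjusted p = 0.00869) and T>C reads, from 528, 466 and 543 to 366, 438 and 295, fell by 0.45 ± 0.152 (adjusted p = 0.0673).

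NDUFB6 (chr9:32553001-32573184, minus strand), an accessory subunit in the membrane arm of complex I, was the rising gene. Its normalised T>C reads were 82.3, 125 and 91.4 at 0h, 86.0, 113 and 144 at 3h and 208, 150 and 262 at 24h. The 24h samples lay above every other sample. T>C reads rose by 0.82 ± 0.222 on the log2 scale (adjusted p = 0.0104). Total reads were 511, 795 and 529 at 0h, 483, 576 and 789 at 3h and 951, 912 and 1236 at 24h, again with the 24h samples on top, and rose by 0.57 ± 0.126 (adjusted p = 2.23e-04). An exon of SMIM27 lies over the last exon of NDUFB6 on the opposite strand, and the strand setting of the counting was not given in the sources used here. Of the genes described below, NDUFC2 has such an overlap on the opposite strand, and NDUFB5 and SDHA on the same strand. Pseudogenes named after ATP5MC1, ATP5MC2, ATP5MG and NDUFS6 number 8, 5, 8 and 1, while ATP5ME and NDUFB6 have 0. Reads of these genes may be shared.

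**Figure D4:**
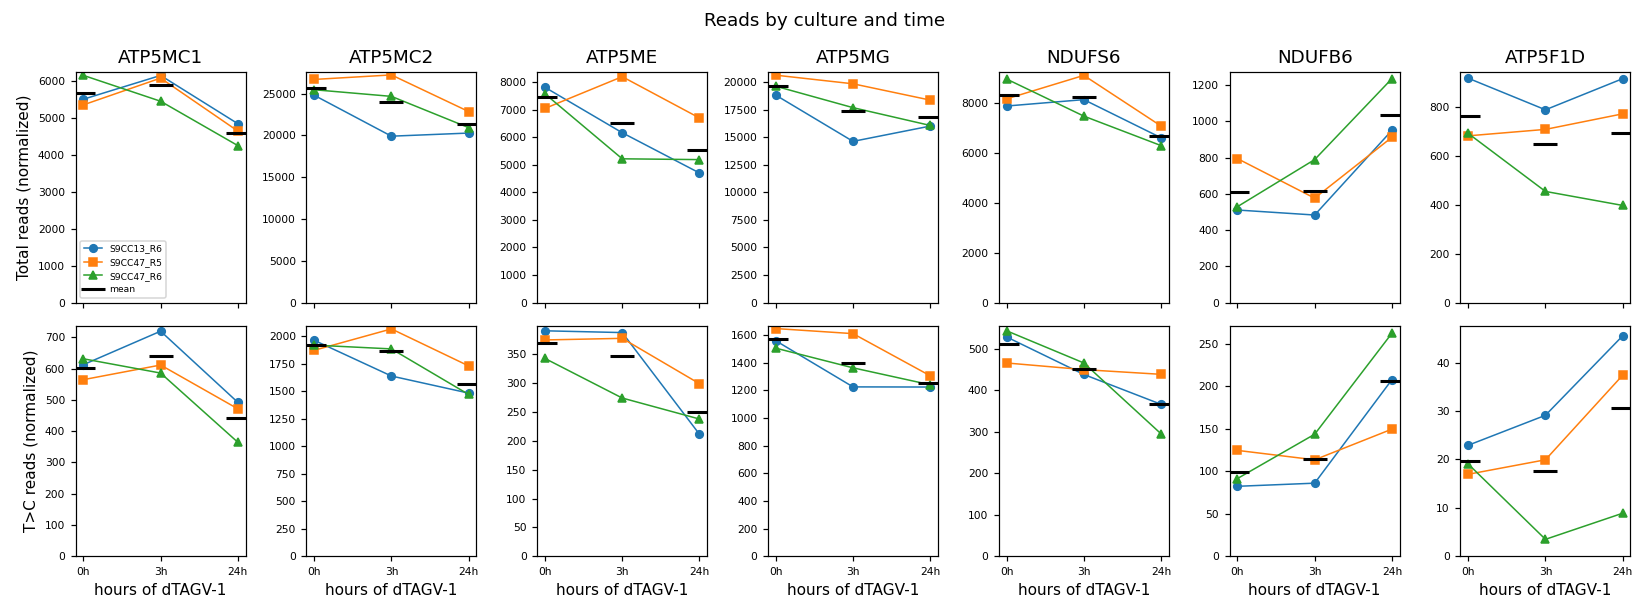
Normalised total reads (top) and T>C reads (bottom) by time for the 6 genes called at 24h against 0h in both measures and for ATP5F1D, with 1 line per culture and a bar for the mean; each axis starts at 0. For the first 5 genes the 24h points lie below the 0h points in both rows, for NDUFB6 above them, and for ATP5F1D the cultures diverge, with S9CC47_R6 lowest at 3h and 24h.

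Of the 7 genes called only in total reads at 24h, SDHA (chr5:218303-257082, plus strand) fell the most. It had 1648, 1605 and 1570 normalised reads at 0h, 1141, 1520 and 1492 at 3h and 1257, 1293 and 1315 at 24h. Its 0h and 24h samples were well apart, and the change was a fall by 0.39 ± 0.102 (adjusted p = 0.00337). UQCRQ, a small complex III subunit, fell by 0.23 ± 0.0872 (adjusted p = 0.0739) and lost the call with culture as a block (adjusted p = 0.276).

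Among the genes that rose in total reads, NDUFC2 (chr11:78068297-78079862, minus strand) and NDUFC1 (chr4:139266880-139302551, minus strand), accessory subunits of complex I, were higher in 3 of 3 cultures. NDUFC2 had 2455, 3097 and 2770 normalised reads at 0h and 3421, 3301 and 3808 at 24h, without overlap, a rise of 0.26 ± 0.0842 (adjusted p = 0.0264). NDUFC1 had 765, 912 and 877 at 0h and 910, 1194 and 1404 at 24h, where the ranges touched, a rise of 0.28 ± 0.114 (adjusted p = 0.0950). The remaining 3 rose in only 2 of 3 cultures: NDUFB5 by 0.33 ± 0.120 (adjusted p = 0.0548), SDHC by 0.32 ± 0.105 (adjusted p = 0.0254) and NDUFS7, a core subunit with an iron-sulfur cluster, by 0.29 ± 0.106 (adjusted p = 0.0618). The NDUFS7 call was lost without the surrogate variable, and with culture as a block the change was -0.0022 (adjusted p = 0.997).

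The calls at 24h depended on 1 library and on single cultures. Without the 3h library of S9CC13_R6, a setting chosen after seeing the data, T>C reads called 1 gene (NDUFB6), with 3.08% of all genes called, and total reads 3 (ATP5MC2, NDUFS7 and SDHA), with 4.9% of all genes called. Without culture S9CC13_R6 the counts were 0 and 1 (UQCRHL), where 0.532% and 1.39% of all genes were called, and without culture S9CC47_R6 they were 0 and 0, where 0.773% and 0.547% were. Without culture S9CC47_R5 they were 4 and 10, where 2.15% and 6.73% of all genes were called. Calls over all genes thus dropped in these settings as well.

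Directly between 3h and 24h, 1 gene was called in T>C reads, beside 1.14% of all genes, and 4 in total reads (4.94%), beside 5.39% of all genes. In total reads NDUFB6 rose by 0.46 ± 0.133 (adjusted p = 0.0217), ATP5MC1 fell by 0.29 ± 0.0876 (adjusted p = 0.0332) and NDUFS6 fell by 0.26 ± 0.0907 (adjusted p = 0.0906), each in 3 of 3 cultures. With culture as a block the counts were 7 in T>C reads (4 up, 3 down) and 12 in total reads (8 up, 4 down), in fits that called 4.4% and 13.2% of all genes, and ATP5MC1 and NDUFB6 were among both. The call in T>C reads was ATP5F1D, at 2.20 ± 0.644 (adjusted p = 0.0637), which rested on few reads: 22, 23 and 3 raw T>C reads at 3h and 48, 36 and 12 at 24h. The 3h and 24h samples overlapped, and the size of the change depended on the covariates. With culture as a block the change was 0.82 (adjusted p = 0.515), and without the surrogate variable it was 0.80. In total reads ATP5F1D was called too (0.50 ± 0.160, adjusted p = 0.0451). It had 787, 707 and 454 normalised reads at 3h and 914, 770 and 396 at 24h, and was higher in 2 of 3 cultures. With the block its change in total reads was 0.062 and the call was lost (adjusted p = 0.872).

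The T>C share was tested on its own, as the log2 odds of a T>C read in each gene centred on each library's median gene (limma, 78 respiratory chain genes). In counts simulated for 24h against 0h, this test called 8 of 67 changes of 0.3 log2 units and 36 of 67 of 0.6. The noise between simulated samples was set by hand, with no batch or culture effect, so these rates need not hold for the measured libraries. No member was called at 3h against 0h, where 0.391% of all genes were, at 24h against 0h, where 0% were, or at 24h against 3h, where 0.58% were. Unadjusted p values were under 0.05 for 3, 8 and 15 of the 78, beside 620, 616 and 1109 of the 8961 genes tested. The median log2 odds moved by 0.04, -0.07 and -0.10 relative to the median gene. Without the 3h library of S9CC13_R6, a setting chosen after seeing the data, these medians were -0.04, -0.07 and -0.04. The first thus changed sign and the last shrank when that library was left out. At 24h against 3h in the main fit, 63 of 78 genes lay below 0, beside 4195 of the 8961 genes tested. With culture as a block, 3 were called at 24h against 3h (ATP5PD, COX5A and NDUFB9), 1 higher and 2 lower, in a fit that called 1.84% of all genes. Without the centring, 4 were called there (ATP5F1D, ATP5PD, NDUFB2 and NDUFV3), all higher, beside 7.52% of all genes, and the median of the 78 turned to 0.14 beside 0.26 over all genes, so the sign of this shift holds only relative to the other genes.

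Genes that build or control these complexes were counted in the same fits, with the same shares of all genes called (at 24h against 0h 4.98% in T>C reads and 15% in total reads), and few were called in each list. Assembly factors, which put the complexes together, had 50 of 51 members in the tables. UQCC2, for complex III, fell in T>C reads at 24h (-0.49 ± 0.146, adjusted p = 0.0269), though in 2 of 3 cultures only. NDUFAF8, for complex I, fell at 3h in T>C reads (-0.56 ± 0.151, adjusted p = 0.0158) and in total reads (-0.30 ± 0.0801, adjusted p = 0.0178), and in total reads at 24h (-0.36 ± 0.0836, adjusted p = 4.21e-04). At 24h total reads of 2 assembly factors rose, among them NDUFAF4 (0.37 ± 0.0985, adjusted p = 0.00414), and 3 fell, among them the copper chaperone SCO2 (-0.36 ± 0.116, adjusted p = 0.0234), and between 3h and 24h 2 rose and 1 fell. Of 16 regulators, 1 was called: GABPB1, a subunit of the GABP factor that binds the ETS string shown above, rose at 24h in T>C reads (0.49 ± 0.151, adjusted p = 0.0332) and total reads (0.38 ± 0.106, adjusted p = 0.00581), in 3 of 3 cultures. Of 13 citric acid cycle genes, OGDH alone was called at 24h in total reads (0.32 ± 0.128, adjusted p = 0.0905) only. Of 11 carriers and further subunits, COQ3, of ubiquinone synthesis, was called there (0.45 ± 0.172, adjusted p = 0.0728). The 13 subunits coded in mitochondrial DNA were not analysed here.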

How the data were processed

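SLAM-seq 3′ end libraries were made from 9 CNCC samples with the QuantSeq 3′ kit. The authors deposited raw counts per gene symbol in 2 tables, of all reads and of reads with a T>C conversion. By their methods, read 1 was trimmed and then mapped and counted with slamdunk, and the study used hg38. The counts carry no normalization, and 9 of 9 value columns of each table were used, assigned by sample title. Reads carry no stated molecular identifiers, so intervals and limits cover counting error only. From the deposited counts, protein-coding genes (GENCODE on hg38, 18769 of 18970 symbols) with at least 1 CPM in 3 samples were fitted with DESeq2 1.42.0 (R 4.3.3), with differentiation batch, 1 surrogate variable (sva 3.50.0) and time as terms and no independent filtering. This design follows the study's methods. Calls used an adjusted p under 0.1. Normalised reads are raw counts over each library's DESeq2 size factor. The T>C share was tested with limma 3.58.1 on log2 odds (pseudocount 0.5, at least 100 total reads in every sample, differentiation batch as covariate). edgeR 4.0.16 was an alternative, as were other factors, filters, covariates, each culture left out and the 3h library of S9CC13_R6 left out. The scripts were tested on simulated counts.

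The 88 genes and all lists were chosen with earlier results of these data known. Genes named with values were those called (for total reads at 24h, the 6 largest falls and up to 6 largest rises among called genes with 50 or more normalised reads that moved the same way in 3 of 3 cultures, with UQCRQ, NDUFB5, SDHC and NDUFS7 added after their values were seen), the 3 highest and 3 lowest by level and by share, subunits with several genes, SOX9, and up to 4 called genes of each list. NDUFS8, NDUFV1, NDUFV2, UQCRFS1, SDHA and SDHC were added to the description of levels and shares after their values were seen. Of the 88 symbols, 86 matched GENCODE directly and 2 a RefSeq synonym (ATP5MD and ATP5MPL). The same cultures recur at each time by their labels, and samples of a culture deviated together on average (mean correlation of deviations from the group means 0.172 in T>C reads, -0.0709 to 0.519 over 9 pairs, and 0.280 in total reads, -0.0625 to 0.627). P-values of the main fits rest on the spread left after batch, time and, for reads, the surrogate variable. Culture was not a term in them, so samples of 1 culture were treated as independent. The cultures came from 2 clones, each line being 1 clone. Promoters are from RefSeq (GRCh38.p14).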

Additional observations from a re-analysis of the deposited data

Results flagged for a closer look

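Changes after 24 h of dTAGV-1 differed from those after 3 h of it in 5 cases, by the direct test of 24h against 3h, since both changes share the 0h samples (DESeq2, adjusted p under 0.1). In total reads, NDUFB6 was higher at 24h than at 3h by 0.46 on the log2 scale, ATP5F1D by 0.50, ATP5MC1 was lower (-0.29) and so was NDUFS6 (-0.26). In T>C reads, ATP5F1D was higher by 2.20, on 3 to 48 raw T>C reads per library. Both ATP5F1D calls were lost with culture as a block (DESeq2, adjusted p = 0.515 in T>C reads and 0.872 in total reads). The changes there were 0.82 in T>C reads and 0.062 in total reads, so the size of 2.20 depended on the covariates. Both calls were also lost without the surrogate variable.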

How the results depend on the processing

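The counts of called genes moved as follows. For T>C reads at 24h against 0h, 6 genes became 3 with a mean of at least 20 counts and 1 without the 3h library of S9CC13_R6 (added after seeing the data), and 0 to 4 with each culture left out. For T>C reads at 24h against 3h, 1 became 7 with the replicate block, 5 with no surrogate variable, 0 with every gene of at least 1 count and 0 without that library, and 0 to 1 with each culture left out. For total reads at 24h against 0h, 13 became 8 with no surrogate variable and 3 without that library, and 0 to 10 with each culture left out. For total reads at 24h against 3h, 4 became 12 with the replicate block, 7 with no surrogate variable, 8 with every gene of at least 1 count and 2 without that library, and 0 to 2 with each culture left out. At 3h against 0h, 0 became 0 to 1 (T>C reads), 0 to 3 (total reads) and 0 to 1 (T>C share) with each culture left out. The T>C share at 24h against 3h, 0, became 4 with no centring and 3 with the block. With each culture left out, the log2 change of total reads at 24h against 0h ran from -0.58 to 0.12 for ATP5ME, -0.15 to 0.47 for NDUFB5, -0.033 to 0.71 for NDUFB6 and -0.17 to 0.47 for SDHC, with the changed sign each time without S9CC13_R6, and with the block it was -0.0022 for NDUFS7. The fits with a culture left out estimated the surrogate variable anew. In normalised total reads, ATP5ME was lower and NDUFB6 higher at 24h than at 0h in 3 of 3 cultures. NDUFB5 and SDHC were higher in 2 of 3. The causes of the changed signs were not tested. Of 271 other values of single called genes under the alternatives, 167 kept direction and call and 99 lost the call. The other 5, for total reads of ATP5ME, NDUFB5, NDUFB6, SDHC and NDUFS7, changed sign. NDUFB6 in T>C reads at 24h kept its call in 9 of the 9 alternatives that leave no culture out. Besides the counts given and the calls named in the report, the block changed the call at 24h against 0h of no gene called in T>C reads. Depth kept SDHB, SDHD and ATP5MGL, with under 100 total reads in some libraries, out of the share test. Of the 88 genes, 49 have annotated pseudogenes named after them (up to 17, COX6C) and 11 an overlapping gene at the last exon, so reads may be shared.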
